A study of Mus musculus with 6 samples.

Results

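Among the differentially methylated regions (DMRs) listed between infant and young adult mouse lung endothelial cells (EC), 1888 of 18333 lay in introns and rose from an infant methylation level below 50%. They were chosen by the 2 group means and by position: on chromosomes 1 to 19, the young adult mean was above the infant mean, the infant mean was below 50%, and the midpoint of the DMR lay inside a curated RefSeq gene, in no exon and more than 1 kb from every transcription start site (TSS). They made up 45.0% of the 4194 intronic DMRs that gained methylation and 18.1% of all 10415 intronic DMRs. The group means therefore describe these DMRs and were not tested.

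The study asked how the DNA methylome of EC changes while vessels mature and EC stop dividing. Lung EC of C57BL/6N mice, described as female in the study's methods, were sorted by flow cytometry as live CD31+CD34+ cells that lacked PTPRC, LYVE1, LY76 and PDPN. The 3 infant samples came from mice 8 to 10 days old and the 3 young adult samples from mice 8 to 12 weeks old, with no other treatment or genotype. Each sample was profiled by T-WGBS, whole-genome bisulfite sequencing of tagmented DNA, in which bisulfite converts unmethylated cytosine and leaves methylated cytosine to be read as cytosine. The list gives 1 mean per group and DMR, so the values of single samples, their spread and the read depth of a DMR are unknown, and no difference between ages could be tested here. The sorted cells are a mixture of EC types, and a change in their proportions cannot be told apart from a change within cells. No expression was analysed here, so the label could not be checked against RNA of marker genes. In a list of 10 endothelial marker genes no DMR of the set was found, beside 44 intronic DMRs with loss in 5 of these genes and 1 intronic gain from a higher infant level. Since 4.40% of all curated genes held a DMR of the set, none among 10 genes says little about these markers.

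Methylation of a CpG dinucleotide is set by the de novo enzymes DNMT3A and DNMT3B and copied at replication by DNMT1. Most CpGs of a mammalian genome are methylated. Stretches of low methylation within introns commonly mark CpG islands or enhancers bound by transcription factors, and such a stretch can become methylated when the factor leaves. Introns, the first above all, hold many of the enhancers that control EC genes.

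The 6 sequences below belong to the intronic gains that were among the 10 with the largest difference between the group means, and are shown as examples of at most 115 bases, short enough to be read whole. They are the plus strand of GRCm38 (mm10), from the C of the first CpG to the G of the last, with each CpG in capitals.
Vwa8 (chr14:79135589-79135617): CGctgcacatggggtgCGagcaCGgtaCG
Hspg2 (chr4:137470562-137470676): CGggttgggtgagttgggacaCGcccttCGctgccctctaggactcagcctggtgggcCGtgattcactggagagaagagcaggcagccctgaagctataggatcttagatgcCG
Prag1 (chr8:36112722-36112754): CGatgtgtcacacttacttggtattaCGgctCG
Sparcl1 (chr5:104111056-104111116): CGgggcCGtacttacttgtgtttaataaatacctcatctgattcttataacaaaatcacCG
Man1a (chr10:53942195-53942268): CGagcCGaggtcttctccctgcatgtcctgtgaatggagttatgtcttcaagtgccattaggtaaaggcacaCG
Gm20755 (chr3:37981798-37981891): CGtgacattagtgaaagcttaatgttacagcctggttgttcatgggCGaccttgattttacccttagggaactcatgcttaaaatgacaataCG

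The Vwa8 site, in intron 37 of a gene for a mitochondrial ATPase, held 4 CpGs in 29 bases and rose from 17.6% to 82.2%, a difference of 64.7 percentage points. The next largest difference, 52.7 points, was in intron 1 of Hspg2, 1.82 kb from the TSS, where 5 CpGs in 115 bases rose from 24.5% to 77.1%. Hspg2 encodes perlecan, a heparan sulphate proteoglycan of the basement membrane. The site in intron 3 of Prag1, a pseudokinase gene, rose from 18.8% to 68.5%. In intron 1 of Sparcl1, which encodes the matricellular protein hevin, methylation rose from 13.5% to 60.3%, and in intron 6 of Man1a, a Golgi mannosidase gene, from 9.20% to 55.2%. The site in intron 2 of the non-coding gene Gm20755 rose from 20.7% to 65.6% and lay 0.948 kb from a TSS of the GENCODE annotation, although 83.0 kb from the nearest curated RefSeq one.

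The other 4 of the 10 largest differences were in Tnni1, Cdkn2a, Pmaip1 and Pde7b. Methylation in intron 2 of Tnni1, which encodes slow skeletal troponin I, rose from 25.6% to 73.9%, at 0.976 kb from a GENCODE TSS. Intron 1 of Cdkn2a, the gene of the cell cycle inhibitors p16 and p19, rose from 28.1% to 75.5%. In intron 1 of Pmaip1, which encodes the pro-apoptotic protein NOXA, it rose from 18.4% to 64.0%, and this DMR overlapped a CpG island and, in part, an exon. Intron 2 of Pde7b, a phosphodiesterase gene that acts on cyclic AMP, rose from 13.0% to 58.2%. The Pde7b site lay 2.10 kb from a curated TSS of this gene. Of these 10 DMRs, the 9 other than Pmaip1 overlapped no CpG island.

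The sequences at the opposite end, with an infant mean at or near 0, are shown because they were unmethylated at the start and remained mostly so. The strand and the capitals are as above.
Hoxb3 (chr11:96340980-96341021): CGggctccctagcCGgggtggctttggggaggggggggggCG
Adamts1 (chr16:85799904-85800050): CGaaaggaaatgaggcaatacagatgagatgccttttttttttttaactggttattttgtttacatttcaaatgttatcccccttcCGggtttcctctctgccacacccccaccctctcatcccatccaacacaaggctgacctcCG
Gse1 (chr8:120505296-120505330): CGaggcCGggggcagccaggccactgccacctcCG
Fli1 (chr9:32525779-32525858): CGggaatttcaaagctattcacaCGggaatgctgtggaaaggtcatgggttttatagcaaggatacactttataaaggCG

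The infant mean was 0 in 4 DMRs. These were in intron 1 of Hoxb3, a homeobox gene, with a young adult mean of 13.5%, in intron 2 of Bahcc1 with 13.8%, in intron 2 of Adamts1 with 16.3% and in an intron of Tfap2a with 11.7%. Adamts1 encodes a secreted metalloprotease and Tfap2a a transcription factor of the AP-2 family. The Tfap2a DMR also lay within Gm26688 and was 0.469 kb from a GENCODE TSS. The next lowest infant means were 0.490% in Anks1, 0.794% in Gse1, 0.808% in Celf3, 0.941% in Fli1, 0.974% in Pik3c2b and 1.05% in Hoxb4. The young adult means of these 6 DMRs were 23.7%, 29.3%, 12.6%, 17.2%, 24.3% and 12.7%. The Celf3 DMR lay 0.759 kb from a GENCODE TSS. None of the 10 DMRs that started lowest reached 30% in young adult EC.

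Over the 1888 DMRs the median infant mean was 29.2% (quartiles 16.1% and 39.4%) and the median young adult mean was 56.6% (quartiles 42.8% and 66.3%). The difference had a median of 26.2 percentage points (quartiles 21.6 and 30.5) and ranged from 10.5 to 64.7. In 1178 DMRs (62.4%) the young adult mean was at least 50%, and in 29 it passed 80%. A difference of at least 40 points was found in 36 DMRs and one below 20 points in 341. Sorted by infant mean in steps of 10 points, the median young adult mean was 27.8% for the 256 DMRs below 10%, then 41.9%, 52.3% and 62.1%, and 70.4% for the 450 DMRs from 40% to 50%. The median difference in these 5 steps was 21.8, 26.7, 27.1, 27.0 and 25.4 points.

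**Figure D1:**
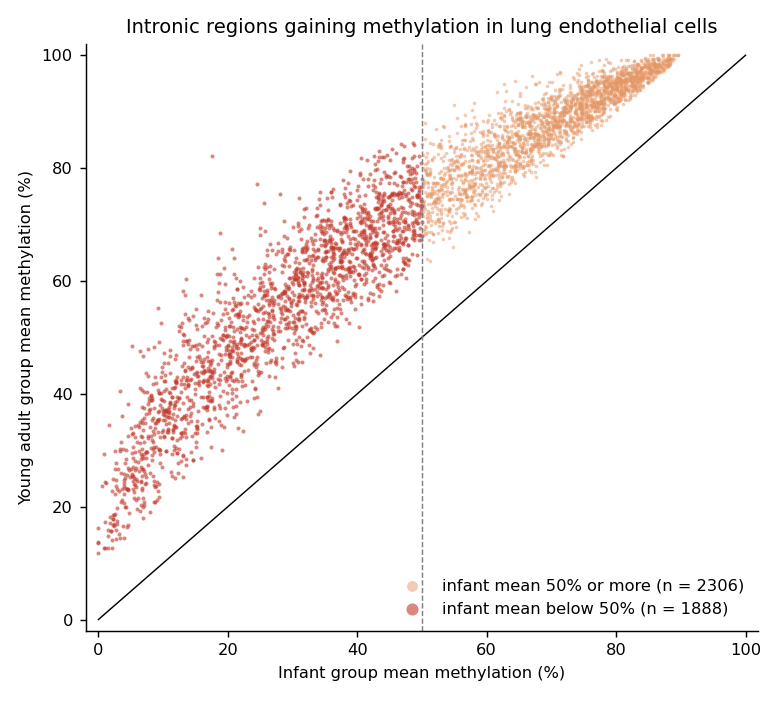
Infant against young adult group mean methylation (%) of the 4194 intronic DMRs that gained methylation. Each point is a DMR, the dashed line is the infant mean of 50% that divides the 1888 DMRs described here from the 2306 others, and the solid line marks equal means. Every point lies above the line of equal means because only gains were taken. The single point far above the rest at an infant mean of 17.6% is the Vwa8 site.

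The threshold cut through a continuum. Just below it lay DMRs in Alkbh3 (49.98% in infant EC and 70.4% in young adult EC), Syn3 (49.99% and 68.0%) and Gfod1 (49.99% and 78.1%). Just above it, and therefore left out, were DMRs in Fbxl7 (50.03% and 74.1%), 8430430B14Rik (50.03% and 84.2%) and Srcin1 (50.05% and 77.3%). The 2306 intronic gains from 50% or more started at a median of 70.8%, reached 88.9% and rose by a median of 17.0 points.

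The rule used neither base composition nor the rank of the intron, but it did use the infant mean. Island shares differed with the infant mean within the set, as given below. Contrasts of island shares with classes that started higher are therefore not independent of the rule. Each share below has a 95% Wilson interval, which covers counting error only, and DMRs of the same gene are not independent. CpG islands were taken as any window of 200 bases in which GC made up at least 50% and the CpG ratio (observed over expected) passed 0.6. A window that met the stricter criteria below was counted too. Such an island overlapped 310 of the 1888 DMRs (16.4%, interval 14.8 to 18.2). The share was 9.45% (8.33 to 10.7) in intronic gains from a higher infant level, 9.84% (9.12 to 10.6) in intronic losses and 14.1% (13.6 to 14.7) in all listed DMRs. With stricter criteria (windows of 500 bases, GC content of at least 55%, ratio above 0.65) the share was 3.65% (2.90 to 4.60). It was 0.564% (0.330 to 0.962) in the higher intronic gains and 0.289% (0.183 to 0.457) in the intronic losses. All listed DMRs stood at 2.91% (2.67 to 3.16), and intergenic gains that also started below 50% at 2.74% (2.07 to 3.61). The intervals of the set did not overlap those of either other intronic class under either definition. They overlapped those of the intergenic gains under both definitions, and those of all listed DMRs under the stricter one only. Within the set, islands were found in 24.6% (19.7 to 30.2) of the DMRs with an infant mean below 10% and in 11.6% (8.92 to 14.8) of those from 40% to 50%. The DMRs that started below 10% also lay closer to the nearest curated TSS, with a median of 13.0 kb against 21.3 to 23.6 kb in the other 4 steps. Away from starts the contrast was smaller, since beyond 5 kb from every TSS the island share was 12.7% in the set, 9.12% in the higher gains and 10.3% in the losses.

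Of the 1888 DMRs, 718 (38.0%, interval 35.9 to 40.2) were in intron 1 of the host transcript. This share lay between that of the higher gains (28.7%, 26.9 to 30.6) and that of the losses (44.9%, 43.7 to 46.2). Intron 2 held 18.2% and intron 3 held 10.4% of the set. The median distance to the TSS of the longest host transcript was 40.4 kb (95% interval of the median 36.5 to 44.0), against 56.6 kb (51.4 to 60.6) in the higher gains and 26.7 kb (25.4 to 28.1) in the losses. To the nearest curated TSS of any gene the median was 21.1 kb, close to the 21.2 kb of all listed DMRs. It was 32.5 kb in the higher gains and 16.3 kb in the losses. The host transcript was non-coding for 172 DMRs (9.11%, 7.89 to 10.5), compared with 7.24% (6.25 to 8.37) and 2.64% (2.27 to 3.06).

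**Figure D2:**
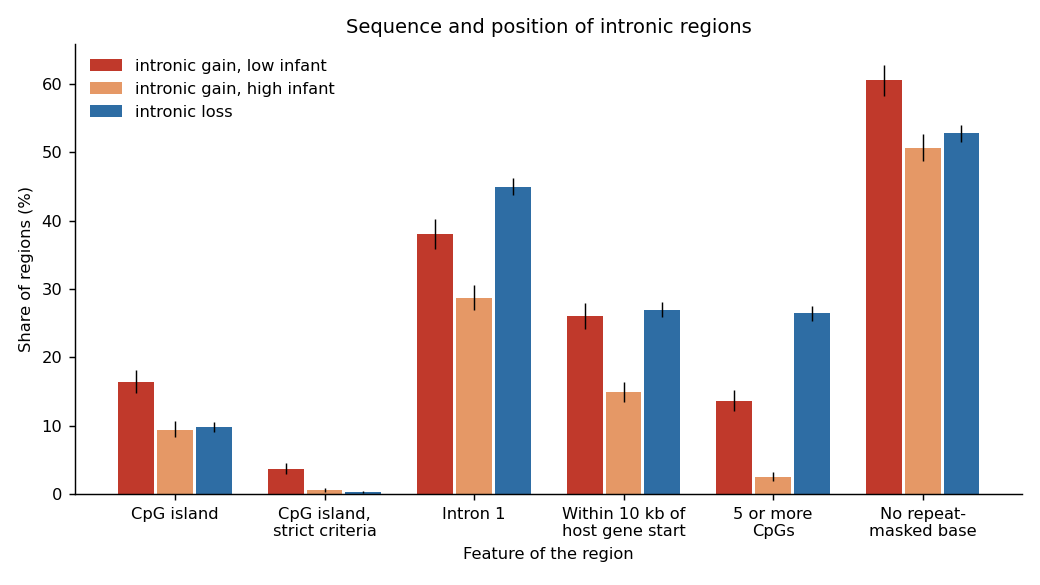
Share (%) of intronic DMRs with each of 6 features, for the 1888 gains from an infant mean below 50%, the 2306 gains from 50% or more and the 6221 losses. Bars start at 0 and error bars are 95% Wilson intervals. The low-infant gains stood above both other classes in CpG islands (16.4%) and in DMRs without a repeat-masked base (60.5%), and between them in intron 1 (38.0%).

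DMRs were short. The median width was 122 bp (quartiles 63.0 and 206, range 6 to 1234), and 1262 (66.8%, 64.7 to 68.9) held exactly 3 CpGs, the least a listed DMR may have. That share was 87.3% (85.8 to 88.6) in the higher gains and 52.1% (50.9 to 53.4) in the losses, and over all listed DMRs it was 66.5% (65.8 to 67.2), close to that of the set. A count of 5 or more CpGs was found in 13.7% (12.2 to 15.3), 2.52% (1.95 to 3.24) and 26.5% (25.4 to 27.6), and in 15.7% (15.2 to 16.3) of all listed DMRs. The DMR with the most CpGs, named after its value was seen, was in intron 2 of Pax8, a paired-box transcription factor gene, where 30 CpGs over 1234 bases rose from 28.8% to 64.4%. No repeat-masked base was found in 1142 DMRs (60.5%, 58.3 to 62.7), compared with 50.7% (48.7 to 52.7) of the higher gains, 52.8% (51.5 to 54.0) of the losses and 55.2% (54.5 to 56.0) of all listed DMRs. The shares in intergenic gains that also started below 50% (n = 1753) were close to those of the set, with 16.4% (14.7 to 18.2) in islands and 60.5% (58.2 to 62.7) without a masked base.

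Short motifs of 18 transcription factor families were searched on both strands in the 200 bases centred on the midpoint of each DMR. Since the median width was 122 bp, this window took in flanking bases for most DMRs. The motifs were the cores AGGAAG (ETS), CANNTG (E-box), TGANTCA (AP-1), ACAAAG (SOX), TGTTTAC (FOX), AGATAA (for GATA factors), the palindrome of NF1, TTGGCA (its single site), GGAATG (TEAD), TGGGAA (RBPJ), AGGTCA (nuclear receptors), CAGAC (SMAD), TAATTA (homeobox), TGTGGT (RUNX), GGGCGG (KLF and SP), AGGGGGC (the core of CTCF), TTCCNGGAA (STAT) and TTTCCA (NFAT). The TTGGCA core lies within the longer NF1 motif, and the other motifs can share bases where they overlap. A match is a run of letters and not a bound site.

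The ETS core was present in the windows of 647 DMRs of the set (34.3%, interval 32.2 to 36.4). ETS factors, among them FLI1 and ERG, are main regulators of EC genes. The share was 23.6% in the higher intronic gains, 29.1% in the intronic losses, 36.5% in the intergenic gains from low infant methylation and 28.6% in all listed DMRs. The interval of the set overlapped that of the intergenic class and neither of the other intronic classes. Without the DMRs in CpG islands the 3 intronic shares were 35.0%, 23.7% and 29.2%. In a window of 100 bases they were 20.1%, 12.2% and 16.3%, and in one of 400 bases 54.7%, 40.8% and 47.6%. The median GC content of the 200 bases was 49.0% in the set, 47.0% in the higher gains and 48.0% in the losses, and its part in the motif shares was not tested.

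The nuclear receptor core AGGTCA was present in the windows of 17.3% of the set, 13.9% of the higher gains, 11.0% of the losses, 16.5% of the low-infant intergenic gains and 13.1% of all listed DMRs. Nuclear receptors include RORA and the vein regulator NR2F2. The homeobox core TAATTA was found in 6.09% of the set and 3.13% of the losses, with 5.64% in the higher gains, 6.10% in the low-infant intergenic gains and 4.32% in all listed DMRs. The forkhead, GATA and single-site NF1 cores were less frequent in the set than in the losses, and the higher gains also lay below the losses. The RUNX core was found in 13.2% of the set and 14.2% of the losses, but in 14.8% of the higher gains. TGTTTAC, read by forkhead factors, was found in 3.81% of the set, 2.60% of the higher gains, 6.03% of the losses and 4.36% of all listed DMRs. AGATAA of the GATA factors was found in 10.3%, 9.71%, 13.7% and 11.7% in the same order, and TTGGCA of the NF1 family in 9.64%, 10.6%, 14.6% and 12.3%. The E-box core hardly differed, with 66.3%, 67.0% and 66.2% in the set, the higher gains and the losses. The differences between the classes were not tested.

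**Figure D3:**
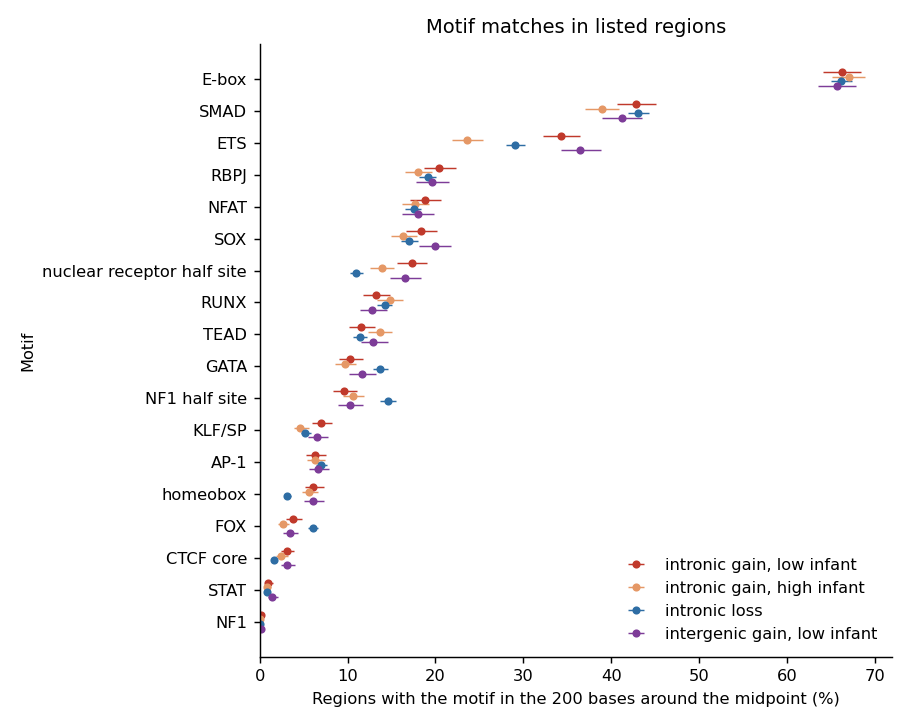
Share (%) of DMRs with each of 18 motifs in the 200 bases around the midpoint, for the 1888 low-infant intronic gains, the 2306 higher intronic gains, the 6221 intronic losses and the 1753 low-infant intergenic gains. Points are shares and lines are 95% Wilson intervals. The ETS motif stood at 34.3% and 36.5% in the gains from low infant methylation, and at 23.6% and 29.1% in the others.

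The ETS core is seen in 3 of the DMRs named above, where the capitals now mark AGGAAG or its reverse complement. They are shown as examples of how the core lies between the CpGs at either end.
Tnni1 (chr1:135800690-135800929): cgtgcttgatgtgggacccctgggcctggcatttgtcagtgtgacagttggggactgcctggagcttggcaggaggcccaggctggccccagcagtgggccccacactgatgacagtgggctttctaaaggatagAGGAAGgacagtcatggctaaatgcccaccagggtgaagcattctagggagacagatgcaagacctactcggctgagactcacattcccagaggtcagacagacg
Pde7b (chr10:20550303-20550545): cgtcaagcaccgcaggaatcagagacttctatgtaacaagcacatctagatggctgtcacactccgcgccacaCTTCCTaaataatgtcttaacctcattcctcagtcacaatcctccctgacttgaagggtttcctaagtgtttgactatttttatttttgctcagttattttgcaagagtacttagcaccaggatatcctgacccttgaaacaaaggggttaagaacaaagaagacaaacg
Celf3 (chr3:94479828-94479848): cggctgtcgCTTCCTtctccg

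The 1888 DMRs lay in 1149 of 26089 curated genes (4.40%), 36 of them in more than 1 gene. A single DMR of the set was found in 782 of these genes, 2 to 4 in 311 and 5 or more in 56, with a mean of 1.67 per gene, against 3.29 per gene for the 6221 losses. Host genes were long, with a median of 92.8 kb against 13.5 kb for all curated genes. Of the 1149 host genes, 327 (28.5%) also held a listed DMR with loss and 466 (40.6%) an intronic gain from a higher infant level. Of all 26089 curated genes, 1922 held an intronic loss, a narrower count than any listed loss. The count over all genes for higher gains is not given here, and the part of gene length in these overlaps was not tested. For 971 DMRs of the set (51.4%, interval 49.2 to 53.7) another listed DMR lay within 10 kb, as for 51.5% (50.8 to 52.2) of all listed DMRs and 29.7% (27.9 to 31.6) of the higher gains. The nearest was a gain for 89.1% (87.0 to 90.9) of these 971. This share was 79.0% (75.8 to 81.9) in the higher gains, 87.7% (85.1 to 89.8) in the low-infant intergenic gains, 36.9% (36.0 to 37.9) in all listed DMRs and 5.51% (4.88 to 6.20) in the intronic losses, so a gain as nearest neighbour was common to the classes of gains. Chromosome 2 held 203 DMRs of the set, 54.7% of its 371 intronic gains, while on the other 18 autosomes this share ran from 36.5% on chromosome 12 to 51.4% on chromosome 15.

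The 10 genes with the most DMRs of the set were Hspg2 and Foxp1 with 13 each, Frmd4a, Magi1 and Tead1 with 12, Tbx3os1 with 11, Arhgap28 and Fli1 with 10, and Nrp2 and Rora with 8. In Hspg2, the perlecan gene, 12 of the 13 were in intron 1. They spanned 39.6 kb (chr4:137470109-137509676), rose from between 6.69% and 48.1% to between 34.9% and 79.2%, and differed by a median of 33.0 points. The gene body held 19 listed DMRs and every one was a gain.

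Foxp1, a forkhead repressor gene, started lower. Its 13 DMRs had a median infant mean of 11.6% (range 1.69% to 42.6%) and a median young adult mean of 35.3% (23.8% to 82.1%). In intron 6 of this gene 6 DMRs of the set were found. The site with the lowest infant mean there had 4 CpGs in 85 bases (chr6:99024736-99024820) and rose from 1.69% to 34.4%. The largest difference was in intron 3 (chr6:99264848-99265361), from 15.9% to 57.6%. Introns are numbered in the longest transcript. This intron 3 site lay 1.41 kb from another curated TSS of Foxp1, and the intron 6 site that started lowest lay 3.52 kb from one. Unlike Hspg2, the gene also held 8 intronic losses.

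Fli1 encodes an ETS factor that keeps EC identity. All 10 of its DMRs were in intron 1, within 30.4 kb (chr9:32501064-32531415), with infant means from 0.941% to 45.3% and young adult means from 17.2% to 74.4%. Its printed sequence above was the lowest of them, and the largest difference, from 29.6% to 60.5%, lay 10.3 kb from the TSS. No intronic gain from a higher level was listed there, and 1 intronic loss was.

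Tead1, the DNA-binding partner of the growth regulators YAP and TAZ, had 5 of its 12 DMRs in intron 1, and 4 of the 12 overlapped CpG islands. Infant means ran from 8.57% to 48.7% and young adult means from 23.8% to 75.2%, and all 14 listed DMRs of the gene body were gains. Arhgap28 had its 10 DMRs in intron 1 and no listed loss. They rose from a median of 25.2% to 51.6%, with the largest difference, 37.3 points, at 47.7 kb from the TSS of the longest transcript and 5.44 kb from another curated TSS of this gene. Nrp2 encodes neuropilin 2, a receptor for class 3 semaphorins and a co-receptor for VEGF-C. Its 8 DMRs started between 20.9% and 48.5% and ended between 56.2% and 81.8%, with 9 gains and no loss in the gene body.

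Magi1 encodes a scaffold of cell junctions. It had 12 DMRs of the set, 9 of them in intron 1, spread over 554 kb, and 10 intronic gains from a higher level. Its infant median was 16.3% and its young adult median 42.6%. Frmd4a, a scaffold that binds the polarity protein PAR3, rose from a median of 25.3% to 57.1% in 12 DMRs over 302 kb. Rora, a nuclear receptor gene of 734 kb, held 8 DMRs that rose from a median of 37.5% to 69.0%, beside 9 higher gains and 2 intronic losses. Tbx3os1, a non-coding gene next to the T-box gene Tbx3, was the smallest of the 10 at 60.3 kb, with 11 DMRs that rose from a median of 28.1% to 58.9% and 7 intronic losses.

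**Figure D4:**
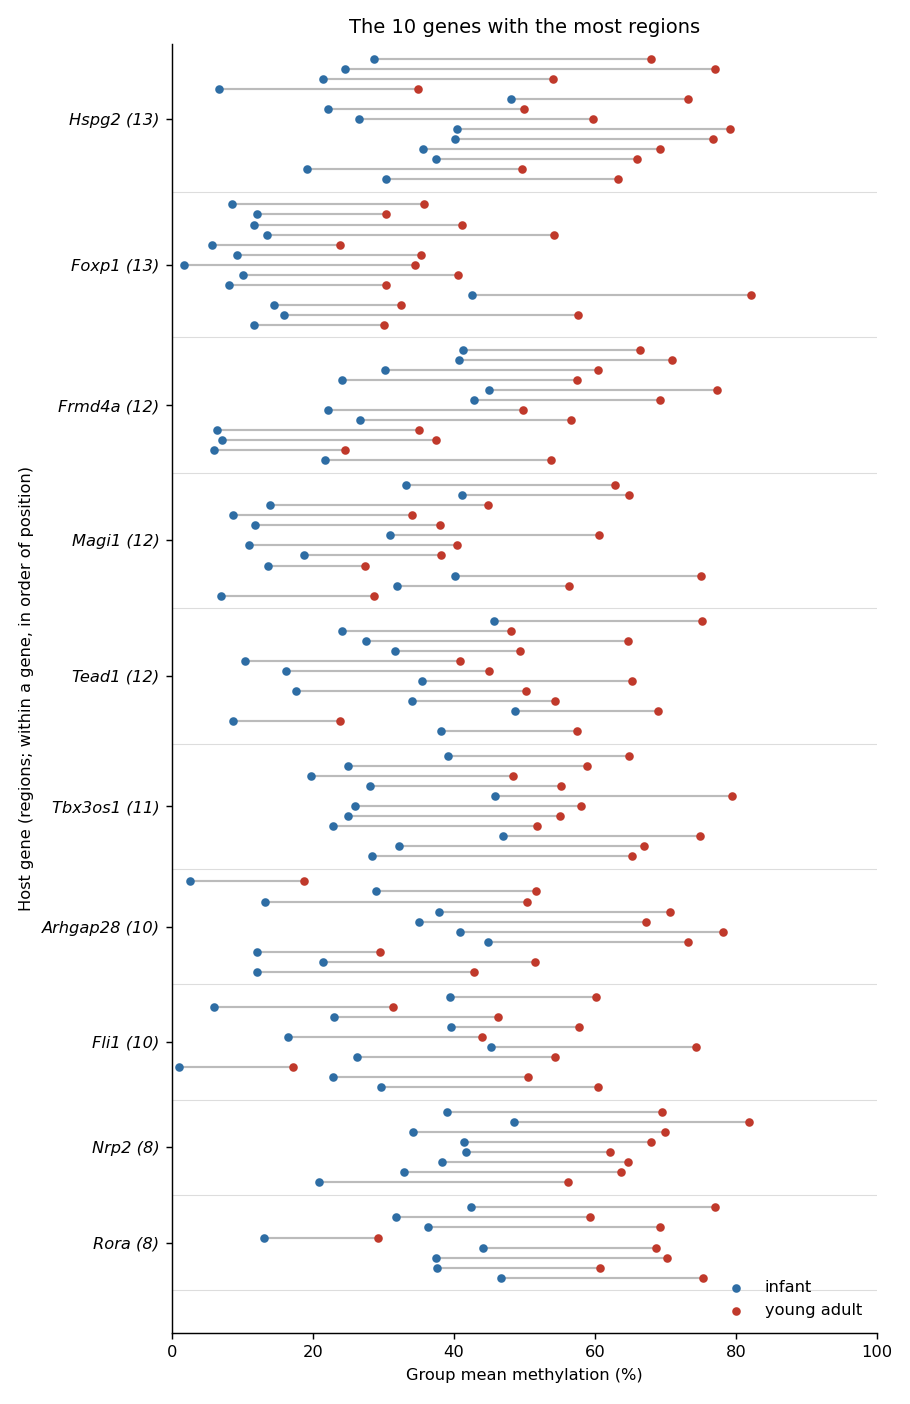
Group mean methylation (%) of every DMR of the set in the 10 genes that held the most, with the number of DMRs in parentheses. Each line joins the infant mean (blue) to the young adult mean (red) of a DMR, and DMRs are in order of position within a gene. Those of Foxp1 started low (median 11.6%) and those of Nrp2 between 20.9% and 48.5%.

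The 4 DMRs of Cdkn2a were all in intron 1, rose by 36.3 to 47.4 points and ended between 43.6% and 83.3%. In the neighbouring non-coding gene Gm12610, named after its values were seen, 5 more DMRs of the set were listed. Together 8 of the 9 lay within 14.9 kb (chr4:89291247-89306120), where 10 DMRs were listed in all and none was a loss. Over the 218 kb that hold all 9, 17 DMRs were listed and 2 of them were losses. The 9 DMRs differed by 29.5 to 47.4 points, each above the median of 26.2.

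Lists of genes from pathways of endothelial biology were counted next. The share of genes with at least 1 DMR of the set is given beside 4.40% for all curated genes, but most lists hold longer genes than the median of 13.5 kb, and the part of length was not tested. The share of a list's intronic DMRs that belonged to the set is given beside 18.1% for all genes.

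Among transcription factors of endothelial and developmental identity, 33 of 180 genes (18.3%) held 97 DMRs of the set, beside 60 higher intronic gains and 184 losses, so that 28.4% of the list's intronic DMRs belonged to the set. Their median rise was 26.6 points. This list had a median gene length of 10.1 kb, below that of all genes, but this median does not describe its host genes. Foxp1, Tead1 and Fli1 led it, with 13, 12 and 10 of the 97, and were 596, 227 and 119 kb long. Among genes of the extracellular matrix and its enzymes, 19 of 121 (15.7%, median length 61.8 kb) held 38 DMRs of the set, beside 47 higher gains and 20 losses. Members of the set made up 36.2% of this list's intronic DMRs, and losses were the smallest class. After Hspg2, the most were in Lama4, which encodes a laminin chain of vascular basement membranes, with 3 DMRs that rose by up to 32.5 points, and in Col14a1, a fibril-associated collagen gene, where a site in intron 1 rose from 18.7% to 59.6%.

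Axon guidance genes, which also steer vessels, held 33 DMRs of the set in 14 of 72 genes (19.4%), beside 31 higher gains and 128 losses, a share of 17.2%. Nrp2 and Plxna4, a semaphorin receptor gene, held 8 each, and the Plxna4 site with the largest difference rose from 14.6% to 53.8%. Unc5a, which encodes a netrin receptor, held 2. Angiogenic receptor kinases and their ligands held 16 in 10 of 60 genes (16.7%), with the lowest median infant mean of the 11 lists, 13.2%, and 15.5% of the list's intronic DMRs belonged to the set. A site in intron 2 of the growth factor receptor gene Fgfr1, in a CpG island, rose from 24.9% to 68.2%. In Igf1r, the receptor of insulin-like growth factor 1, a site rose from 6.47% to 41.0%, and in intron 1 of Kit, the stem cell factor receptor, from 30.2% to 57.5%.

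Cell adhesion and polarity genes held 34 in 15 of 94 genes (16.0%), which was 16.2% of the intronic DMRs of the list. The shares of these 3 lists were below the 18.1% of all genes. Apart from Magi1, a site in intron 22 of the polarity gene Pard3b rose from 44.2% to 82.0%, and a site in intron 1 of Itga6, the laminin receptor subunit integrin alpha 6, rose from 6.41% to 47.6%.

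In the Notch pathway 5 of 26 genes (19.2%) held 9 DMRs of the set, beside 5 higher intronic gains and 19 losses in 7 genes. The set made up 27.3% of the list's intronic DMRs, and losses were the largest class. Notch2, a receptor, and Maml3, a co-activator of the Notch intracellular domain, held 3 each. Those of Notch2 started at 45.6% to 47.8%, just under the threshold, and reached 67.7% to 78.0%, while those of Maml3 had infant means of 16.3% to 36.0% and young adult means of 43.9% to 62.2%. Maml2, a second co-activator, held 1, from 40.4% to 71.6%.

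The TGFβ and BMP pathway had few members of the set for its many intronic DMRs. Here 16 were found in 8 of 46 genes, against 160 losses in 17 genes, so that 8.47% of the list's intronic DMRs belonged to the set. By genes the list was not low. Its 17.4% of genes with a DMR of the set stood beside 16.0% for adhesion and polarity and 18.3% for transcription factors. The effector gene Smad1 held 6, with infant means from 9.52% to 49.5% and young adult means from 30.0% to 71.2%. Smad3, the effector of the TGFβ branch, held 2 and rose by up to 31.8 points, and Ltbp1, a latent TGFβ binding protein gene, held 3. The Wnt pathway likewise held few, with 8 in 7 of 68 genes (10.3%) beside 106 losses in 12 genes, a share of 6.30%. Tcf7l2 and Lef1, transcription factors of this pathway, held 2 and 1, and the ligand gene Wnt5b held 1, with a largest rise of 35.0 points in Tcf7l2.

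Cell cycle regulators held 10 DMRs of the set in 5 of 34 genes (14.7%), beside 4 higher gains and 16 losses. Their median rise was 30.0 points and their share was 33.3%. Besides Cdkn2a, the cyclin-dependent kinase gene Cdk6 and the transcription factor gene E2f2 held 2 each. Ion channel genes held 23 in 15 of 154 genes (9.74%), beside 45 higher gains and 22 losses, with a median rise of 23.2 points and a share of 25.6%. A site in intron 2 of the calcium release channel gene Itpr1 rose from 40.5% to 81.8%. Other channel genes with members of the set were Kcnq1 with 3 and Kcnma1 with 2. Of 17 genes for DNA methylation enzymes, Dnmt3a, a de novo methyltransferase gene, was the only one with DMRs of the set. Both of them were in intron 6 of the longest transcript, where 6 CpGs rose from 29.9% to 58.0% and 8 CpGs from 22.3% to 53.8%. They lay 7.41 and 1.26 kb from another curated TSS of Dnmt3a, and 7 intronic losses lay in the same gene. The pair made up 11.1% of the intronic DMRs of this list.

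**Figure D5:**
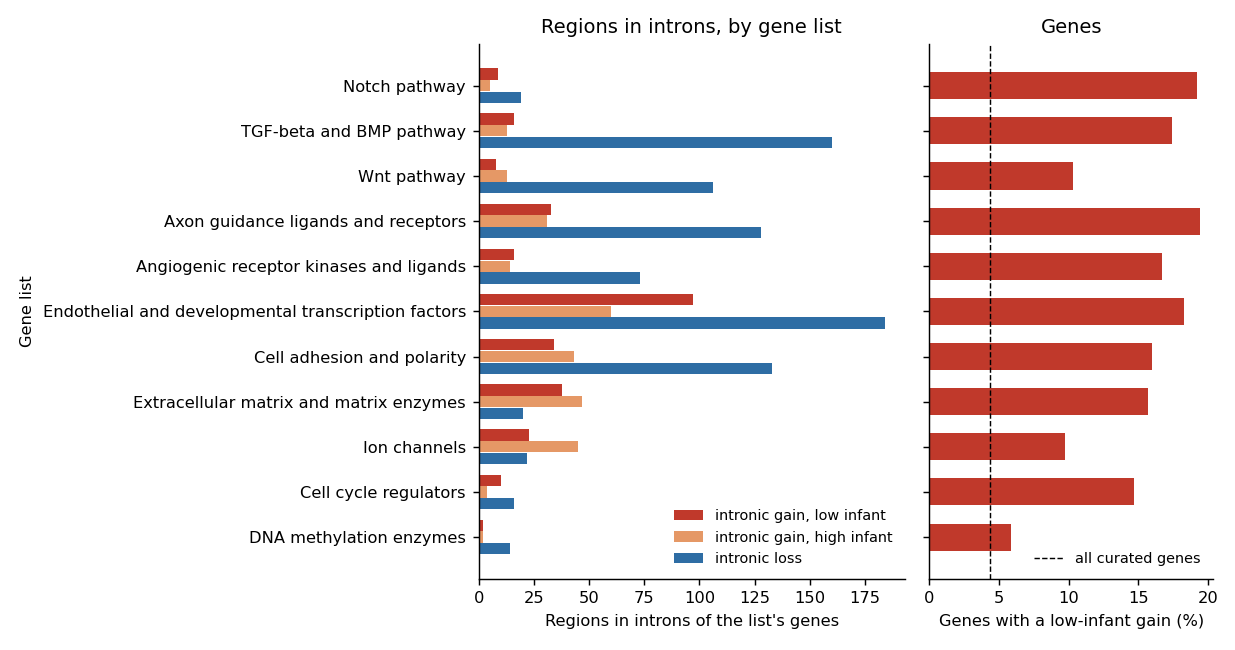
Left, number of intronic DMRs in the genes of 11 pathway lists, as gains from an infant mean below 50%, gains from 50% or more, and losses. Right, share (%) of each list's genes with at least 1 low-infant gain, with 4.40% for all curated genes as a dashed line. Losses were the largest class in most lists, among them the TGFβ and BMP list (160). They were the smallest class in the matrix list (20) and the ion channel list (22).

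Marker lists of other lung cell types held 6 or 10 genes each, so that few hosts can be counted in a list, beside 4.40% of all curated genes. No DMR of the set lay in 10 fibroblast, 10 epithelial, 10 leukocyte or 6 lymphatic endothelial marker genes. Of 10 markers of pericytes and smooth muscle cells, Cspg4, which encodes the proteoglycan NG2, held 1, from 43.4% to 73.0%. Among these lists of other cell types, intronic losses were found only in the epithelial one, with 5 in 2 genes. Methylation in these genes does not measure the share of another cell type, so admixture of other cells was not tested. Of 21 genes that the study's primer list gives for its mass spectrometry assays of single DMRs, 4 held 17 DMRs of the set. The study assayed selected DMRs, so this count cannot be read against the 4.40% of all curated genes. Which of the 17, if any, were assayed is not given here. The 17 were the 13 of Foxp1, the 2 of Dnmt3a, 1 of Foxo3, which rose from 16.8% to 39.4%, and 1 of Ccn1, a matricellular gene also known as Cyr61, which started at 31.0%.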

How the data were processed

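Per the labels, T-WGBS of 3 infant and 3 young adult lung EC samples was analysed. The authors aligned converted reads to mm10 with BWA 0.6.1 and listed DMRs with bsseq in R 3.2.2 (at least 3 consecutive CpGs, each with p below 0.05, coverage of at least 8-fold in 2 of 3 samples, group means at least 10% apart). Each deposited value is the mean methylated fraction of a group, shown here in percent. Sizes are therefore those of selected regions, and the depth of a DMR is unknown. The listed ends were the C of a CpG in 18333 of 18333 DMRs, and the direction fitted the sign in all. The authors' nearest-promoter column was not used.

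DMRs were placed by midpoint in GRCm38 with 45657 curated RefSeq transcripts (a DMR in several was numbered in the longest host transcript), in Python 3.11.15 with pandas 2.3.3, numpy 2.4.6 and scipy 1.17.1. Shares have 95% Wilson intervals and medians have intervals from binomial ranks. No test was made, as 1 value per group was listed. The functions were tested on toy data. The genes named were the 10 with the most DMRs, the hosts of the 10 largest differences and of the 10 lowest infant means, up to 3 per list, 3 on either side of the threshold, and those in the study's primer list for single DMRs. The DMRs, lists and motifs were chosen with earlier results of these data known. Alternatives to the rule were tried. A further gene list is not reported here.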

Additional observations from a re-analysis of the deposited data

How the results depend on the processing

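The number of DMRs, their median difference, and the shares in CpG islands, in intron 1 and with exactly 3 CpGs were recomputed under other rules. Most values stayed within the interval of the reported value (for the number, within 1.5 times). Requiring at least 4 CpGs left 626 of the 1888 DMRs, with a median difference of 28.1 points and 21.7% in islands. Keeping 1 DMR per host gene left 1125 by construction, with a median of 26.7 points and 70.3% with 3 CpGs. An infant threshold of 60% gave 25.3 points and 69.5%, a difference of at least 20 points gave 27.6 points and 63.4%, and joining DMRs within 500 bp gave 64.2% with 3 CpGs. Beyond 5 kb from every TSS, 12.7% overlapped islands and 30.5% were in intron 1. Stricter islands gave 3.65%, and the lowest intron number of any transcript gave 42.6% in intron 1. Leaving out DMRs near GENCODE starts or in GENCODE exons, an alternative chosen after seeing the data, kept 1795. Apart from values that a rule sets by its construction, the cause of these shifts was not tested.

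The ETS motif was found in 20.1% of DMRs with a window of 100 bases and in 54.7% with 400, against 34.3% as reported. No paired analysis was possible because the list holds 1 mean per group, and for the same reason no replicate could be left out. Depth limits every value in a way that cannot be stated, since neither coverage nor the spread between samples is known.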

Other observations

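The X chromosome was outside the rule. Of its 165 listed DMRs, 31 were intronic by the same placement, 28 of these gained methylation, and 19 (67.9% of the gains) started below 50%, compared with 45.0% on chromosomes 1 to 19. Their median infant mean was 16.6% and their median young adult mean 42.3%, and 9 of the 19 overlapped a CpG island. The gene with the most was Bcor, which encodes a transcriptional corepressor, with 5. The mice are described as female.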
